A study of Mus musculus with 41 samples.

Results

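Messenger RNA of 10 genes for inflammatory cytokines and colony-stimulating factors, Il6, Il11, Lif, Il1a, Il1b, Il33, Tnf, Csf1, Csf2 and Csf3, was read from a table of 27197 genes in mouse mesothelioma. The genes were chosen by name, not by their values. All 10 were in the table, 3 of them had enough reads to be tested between cell lines of 2 genotypes, and 10 had enough to be tested between tumors and cell lines.

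These genes encode secreted proteins that recruit, feed or activate leukocytes. IL-6, IL-11 and LIF each bind a receptor of their own and signal through the shared chain gp130 to STAT3. IL-1α, IL-1β and IL-33 belong to the IL-1 family, which signals through MyD88 to NF-κB. IL-1β is made as a precursor in myeloid cells after an inflammatory stimulus, whereas IL-1α and IL-33 can be released from damaged cells. TNF engages its own receptors and also activates NF-κB. CSF1 (M-CSF) keeps macrophages alive, CSF2 (GM-CSF) acts on granulocytes and macrophages, and CSF3 (G-CSF) drives the production of neutrophils. Mesothelioma, a tumor of the lining of the chest cavity, is known for chronic inflammation and abundant macrophages.

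The mice, of a mixed FVB, Bl6 and 129Ola background, received adenovirus with Cre under the ubiquitous CMV promoter in the pleural space, with cyclosporine A in the drinking water around the infection. BNC denotes Bap1-/-;Nf2-/-;Cdkn2ab-/- and NC denotes Nf2-/-;Cdkn2ab-/-, so that both genotypes lacked Nf2 and Cdkn2ab and only Bap1, a deubiquitinase gene, differed. Cells that grew out of chopped tumors gave 3 BNC lines, named JB81, JB91 and JB97, and 3 lines of NC genotype, named JB84, JB87 and JB93, in medium with hydrocortisone, EGF and fetal calf serum. The remaining 9 libraries were taken as the tumors, 5 BNC and 4 NC by the labels, but the labels used here did not tie a column to a genotype, and so the tumors were treated as 1 group. The age of each animal at sampling was not given in the sources used here. All tumor columns shared 1 numeric prefix and the line columns carried 2 others, whose meaning was not given in the sources used here, so that prefix and tissue cannot be told apart.

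The total count was 12377675 to 23936922 per line and 8158740 to 21851974 per tumor. Levels are given as CPM, the counts of a gene relative to the total of its library, scaled by the TMM method over the 15 libraries. Bap1 itself was read at 36.9 to 41.4 CPM in BNC lines and 56.8 to 60.3 CPM in NC lines, without overlap, and part of its transcript lies outside the deleted exons. Cdkn2a was at most 0.550 CPM in any line. JB81 and JB91 were close to each other across all tested genes (Pearson's r = 0.998), as were JB84 and JB93 (r = 0.997), although the columns of each pair carried different prefixes and differed by more than counting error. JB81 and JB91 also lacked the mesothelial marker Msln (0.207 and 0.415 CPM, against 223.5 to 2017 CPM in the other lines). Other mesothelial markers were low in them too, among them Upk3b (2.31 and 2.32 CPM), Pdpn (0.289 and 0.539 CPM) and Krt19 (0.785 and 0.622 CPM). Of the 8 markers listed only Wt1 was kept, at 123 CPM in each. The 8 summed to 127 CPM in each, against 667 to 3016 CPM in the other lines. Krt18, another mesothelial marker, was at most 0.951 CPM in the 3 BNC lines and 55.3 to 146 CPM in the NC lines. Of the tumor libraries, B1 had the fewest counts and 24.7% of them on Gm42418, a gene that overlaps ribosomal RNA. The gene with the most counts was Scgb1a1 in B2 (3.36%) and Atp2a1 in B45 (1.77%). The part of neighbouring normal tissue in the tumor libraries was not tested.

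The promoters of the genes on which the results turn are shown first. RefSeq windows of 250 bases before the transcription start (GRCm38.p6, the build of the files) were found for 9 of the 10 genes, all but Csf3. They were searched on both strands for 5 motifs, whose share among all 32851 windows of this length serves as the background. An NF-κB motif, GGGA followed by any base and by TTTCC, was present in 0.356% of the windows. The AP-1 motif TGANTCA, with any base in the middle, was present in 6.75%. A TATA box was looked for as TATAAA and was present in 12.4%. For STAT factors the palindrome TTCNNNGAA was used, which 7.02% of windows held. For C/EBP factors the pattern was TTNNGNAAT, held by 10.2% of them. The first 4 sequences belong to cytokine genes that were highest in the same tumor, B27, the fifth to the gene that separated BNC from NC lines, and the last, before the downstream start of Il33, to the member with the highest tumor median per length. Capitals mark NF-κB, AP-1 and TATA motifs.
Il6 (chr5:30012864-30013113, plus strand): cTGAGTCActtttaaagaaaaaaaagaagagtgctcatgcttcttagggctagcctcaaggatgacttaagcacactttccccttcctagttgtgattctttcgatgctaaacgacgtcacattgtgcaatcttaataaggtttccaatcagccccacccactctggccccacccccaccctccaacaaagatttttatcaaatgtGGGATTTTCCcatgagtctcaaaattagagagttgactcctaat
Il1a (chr2:129309973-129310222, minus strand): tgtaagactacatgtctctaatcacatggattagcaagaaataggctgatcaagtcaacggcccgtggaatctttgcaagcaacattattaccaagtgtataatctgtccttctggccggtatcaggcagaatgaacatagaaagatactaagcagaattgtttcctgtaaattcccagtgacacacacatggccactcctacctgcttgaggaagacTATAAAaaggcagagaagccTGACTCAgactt
Il1b (chr2:129371140-129371389, minus strand): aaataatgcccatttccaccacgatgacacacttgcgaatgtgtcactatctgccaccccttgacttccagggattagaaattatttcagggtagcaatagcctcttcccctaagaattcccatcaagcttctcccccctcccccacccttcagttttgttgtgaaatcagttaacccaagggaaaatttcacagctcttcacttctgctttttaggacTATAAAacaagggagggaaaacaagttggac
Tnf (chr17:35202008-35202257, minus strand): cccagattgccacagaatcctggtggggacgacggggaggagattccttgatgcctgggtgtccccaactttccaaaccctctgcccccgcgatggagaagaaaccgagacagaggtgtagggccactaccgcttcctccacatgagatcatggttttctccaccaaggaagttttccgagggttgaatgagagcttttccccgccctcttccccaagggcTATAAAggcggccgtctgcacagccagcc
Csf1 (chr3:107760470-107760719, minus strand): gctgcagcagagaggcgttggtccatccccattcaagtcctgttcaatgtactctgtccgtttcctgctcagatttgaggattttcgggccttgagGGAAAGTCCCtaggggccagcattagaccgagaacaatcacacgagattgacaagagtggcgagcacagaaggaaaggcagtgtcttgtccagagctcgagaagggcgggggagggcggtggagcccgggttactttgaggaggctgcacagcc
Il33 (chr19:29945540-29945789, plus strand): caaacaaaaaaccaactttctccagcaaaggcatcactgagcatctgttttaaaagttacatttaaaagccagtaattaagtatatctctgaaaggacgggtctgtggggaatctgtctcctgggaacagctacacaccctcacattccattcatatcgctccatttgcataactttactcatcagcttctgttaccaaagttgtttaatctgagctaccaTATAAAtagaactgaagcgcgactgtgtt

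An NF-κB motif was found in the windows of 2 of the 9 genes, Il6 and Csf1, beginning 44 and 154 bases before the start. An AP-1 motif was found in 4 (Il6, Il1a, Il11 and Lif), a TATA box in 4 (Il1a, Il1b, Il33 and Tnf), a C/EBP motif in 2 (Il6 and Il1b) and a STAT motif in 0. These are matches of letters only, and sites outside the windows were not searched.

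**Figure D1:**
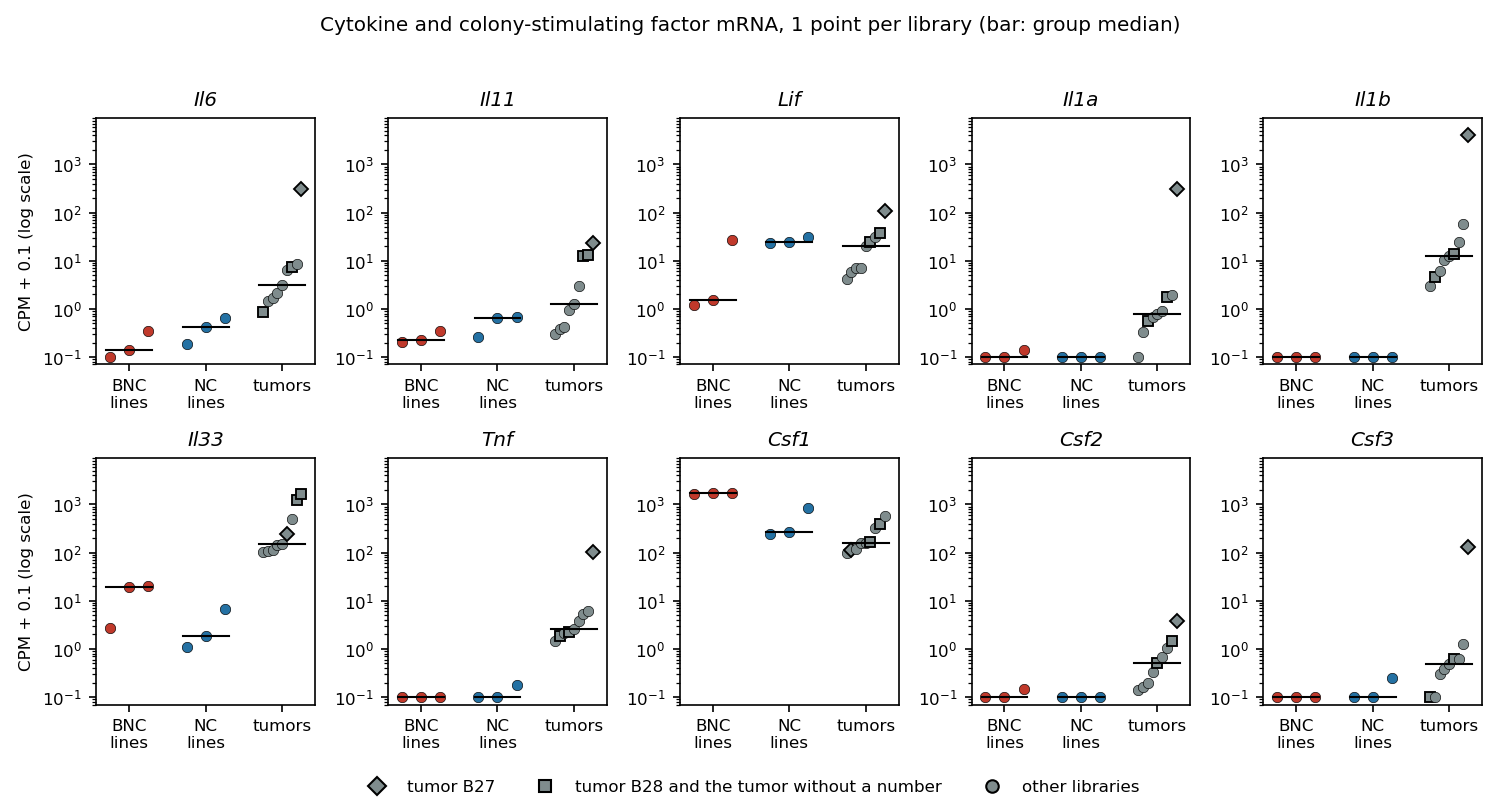
Level of each of the 10 genes in every library, as CPM + 0.1 on a log axis, in BNC lines (n = 3), NC lines (n = 3) and tumors (n = 9). Bars are group medians. Tumor B27 (diamond) was highest for 8 of the 10 genes, all but Il33 and Csf1.

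The comparison of BNC with NC lines asks what differs with Bap1 in tumor cells grown without other cell types. Most of these cytokine genes had hardly any reads in either group. Il1b had 0 counts in all 6 lines, and Il1a, Tnf, Csf2 and Csf3 had at most 2 counts in any of them. Il6 and Il11 were below 1 CPM in every line. The genes with enough reads to be tested were Csf1, Il33 and Lif. Of these, 0 passed an adjusted p-value under 0.01 with more than 2-fold change, where 1.10% of the 12376 genes tested did (edgeR's quasi-likelihood test). At an adjusted p under 0.05, passed by 14.2% of all genes tested, the count was again 0 of 3. DESeq2 called 1 of them, Csf1, beside 14.7% of the 13563 genes it tested, and gave no adjusted p-value for Lif. Of the 3, 1 (Csf1) had an unadjusted edgeR p under 0.05, beside 35.6% of all genes tested.

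Csf1, which encodes the macrophage growth factor M-CSF, was the dominant member in the lines. It lies at chr3:107741048-107760469 on the minus strand (GENCODE M21, GRCm38). It was read at 1624 CPM in JB81, 1710 in JB91 and 1717 in JB97, against 245 in JB84, 859 in JB87 and 271 in JB93. The lowest BNC line lay above the highest NC line, and 41.4% of all genes tested were separated in this way in one direction or the other. The group means were 1684 ± 51.4 CPM in BNC and 458 ± 347 CPM in NC lines (SD, n = 3 each). The log2 fold change was 1.86 with a standard error of 0.52 and did not pass (edgeR, adjusted p = 0.0631). Without JB87 the change was 2.71 (edgeR, adjusted p = 0.0004), but the NC lines left were the close pair JB84 and JB93. That p-value counts the pair as independent samples, and 2574 genes were then called, against 136 with all 6 lines. DESeq2 called Csf1 with all 6 lines (log2 fold change 1.88, adjusted p = 0.0021). With each close pair of lines summed and counted once the change was 1.57 (edgeR, adjusted p = 0.4501). Without JB81 and JB91, which leaves JB97 as the single BNC line and only the NC lines to estimate the spread, it was 1.89. Csf1 was higher in BNC lines under all 19 alternative settings. The order also held among lines of 1 prefix, with 1710 and 1717 against 271 CPM in one and 1624 against 245 and 859 CPM in the other.

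Il33 (chr19:29925114-29960718, plus strand), the alarmin stored in the nucleus, followed the close pair rather than the genotype. It was 19.8 CPM in JB81 and 19.4 in JB91 but 2.55 in JB97, and 1.01, 6.79 and 1.77 CPM in JB84, JB87 and JB93. JB97 thus lay within the range of the NC lines. The log2 fold change of 2.13 (SE 1.01) did not pass (edgeR, adjusted p = 0.18), and without JB81 and JB91 it turned to -0.32.

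Lif (chr11:4257557-4272514, plus strand), a gp130 cytokine named for its action on leukemia cells, had the opposite arrangement. It was 1.12 CPM in JB81 and 1.45 in JB91, against 26.6 in JB97 and 22.7, 31.1 and 23.98 CPM in JB84, JB87 and JB93. The gap was between JB81 with JB91 and the other lines, and the genotypes overlapped. BNC against NC gave a log2 fold change of -1.47 (SE 1.19; edgeR, adjusted p = 0.40). It passed without JB97 (-4.33; edgeR, adjusted p = 0.0022), but the BNC lines left were then the close pair, which this p-value counts as independent samples. The change was 0.02 without JB81 and JB91. JB81 and JB91 were also the lines that lacked Msln and had low levels of most other mesothelial markers. The part of this in the Lif and Il33 levels was not tested.

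**Figure D2:**
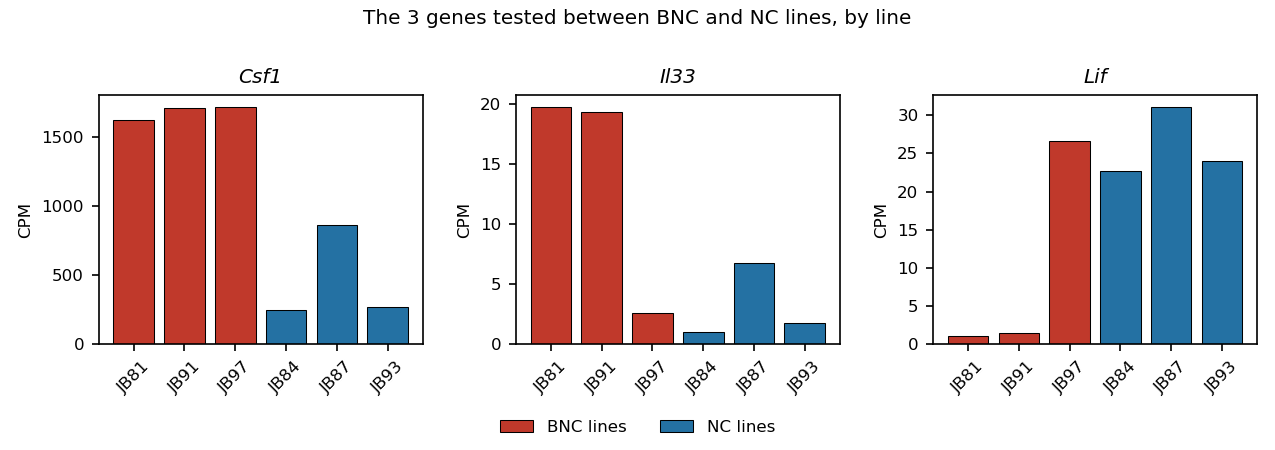
CPM of Csf1, Il33 and Lif in each of the 6 lines (bars, 1 library each). All 3 BNC lines exceeded the NC lines for Csf1, whereas JB97 resembled the NC lines for Il33 and Lif.

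Tumors contain leukocytes, vessels and stroma that the lines lack, and the comparison of tumors with lines asks how much of each cytokine message was present in the whole tissue. In bulk samples, fewer cells of a type and less RNA per cell cannot be told apart. Of the 10 genes, 7 were higher in tumors (Il6, Il1a, Il1b, Il33, Il11, Tnf and Csf2) and 1 was lower (Csf1) at an adjusted p-value under 0.01 with more than 2-fold change (edgeR), where 28.2% of the 15675 genes tested were called higher and 11.5% lower. Lif and Csf3 did not pass. All but Csf1, Il33 and Lif passed the read filter only through their tumor reads, so that they could hardly come out lower. The number called higher follows in part from this filter. With at least 10 counts in every library only these 3 were tested, and Il33 was called higher and Csf1 lower. In 4 genes (Il6, Il1b, Il33 and Tnf) every tumor was above every line, as in 16.4% of all genes tested. The median log2 fold change of the 10 genes was 6.97, beside 0.38 over all genes tested, and it also follows in part from the filter. The 3 genes with enough line reads had changes of 6.15 (Il33), 0.76 (Lif) and -1.91 (Csf1). Leaving out any one line took the calls of Il1a, Il1b and Il11, and that of Il6 without JB81, JB84, JB91 or JB93, at edgeR adjusted p-values of 0.0111 to 0.0293. With each close pair of lines summed and counted once, Il33, Tnf and Csf1 were called. Leukocyte markers moved with this comparison in the same way, since Ptprc, Cd52, Coro1a and Laptm5 summed to at most 0.694 CPM in any line and to 351 to 1377 CPM in tumors, and their part in the cytokine levels was not tested.

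Among the IL-1 family, Il33 was the most abundant in tumors at the median. Its level was lowest in B1 at 103 CPM, 150 CPM at the median and highest in B28 at 1649 CPM, whereas no line exceeded 19.8 CPM. The tumor without a number followed B28 at 1226 CPM, and B14 at 504 CPM. The log2 fold change was 6.15 (SE 1.01; edgeR, adjusted p = 0.00015), and it stayed between 5.61 and 6.72 when each library was left out in turn. Il33 was called under all 23 alternative settings.

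Il1b (chr2:129364570-129371139, minus strand) was found in all 9 tumors and in 0 lines. It ranged from 2.92 CPM in B45 over a median of 12.5 CPM to 4039 CPM in B27, and the next tumor, B14, had 56.8 CPM. Against the limit of 3 counts per library in the lines, the tumor median was at least 78.6-fold higher. The log2 fold change, with 0 counts in the lines, was 16.09 (SE 3.82; edgeR, adjusted p = 0.0040). B27 alone held 96.9% of the Il1b signal summed over tumors. Without B27 the adjusted p was 6.1e-05 (edgeR), so that the call did not rest on this tumor. It was lost, at edgeR adjusted p-values of 0.0111 to 0.0118, when any of the 6 lines was left out.

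Il1a (chr2:129299610-129309972, minus strand), the neighbour of Il1b, had 0 counts in B1, 0.685 CPM at the median and 305 CPM in B27. No other tumor exceeded 1.86 CPM. In the lines 1 read was counted in all, and the ratio of the tumor median to the pooled lines was 81.7 (95% Poisson interval 14.7 to 3228, counting error only). The log2 fold change was 11.52 (SE 3.20; edgeR, adjusted p = 0.0075). Reads of Il1a, Il1b and Csf2 cannot be told apart from those of antisense genes that overlap their exons, because the strand setting of the counting was not stated.

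Of the gp130 cytokines, Il6 (chr5:30013114-30019981, plus strand) was 0.774 CPM in B28, 3.08 CPM at the median and 315 CPM in B27. The second highest tumor, B14, had 8.42 CPM, and the lines had 0 to 0.540 CPM. The log2 fold change was 7.80 (SE 1.90; edgeR, adjusted p = 0.0027) with all tumors and 4.45 (SE 0.85; edgeR, adjusted p = 0.0006) without B27. The size thus depended on this tumor. The direction did not, but with so few reads in the lines it could hardly reverse.

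Il11 (chr7:4772373-4782859, minus strand), a gp130 cytokine linked to fibroblasts and fibrosis, was high in 3 tumors only. It was 23.5 CPM in B27, 12.9 in the tumor without a number and 12.2 in B28, and 0.202 to 2.82 CPM in the other 6 tumors. The lines had 0.1001 to 0.566 CPM, so that 3 tumors fell within their range. Tumors exceeded lines by 4.51 on the log2 scale (SE 1.18; edgeR, adjusted p = 0.0044), and by 3.86 without B27 (edgeR, adjusted p = 0.0072). Lif differed least, at 4.11 CPM in B45, 20.0 CPM at the median and 105 CPM in B27, with lines on both sides of the median (log2 fold change 0.76, SE 0.80; edgeR, adjusted p = 0.43). Single libraries moved this value, which was 2.24 without JB97 (edgeR, adjusted p = 0.027) and 0.105 without B27.

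Tnf (chr17:35199381-35202007, minus strand) was low but present in every tumor. It was 1.32 CPM in B45, 2.47 CPM at the median and 105 CPM in B27, where the next tumor had 5.94 CPM. A single read was counted over the 6 lines, and the ratio of the tumor median to the pooled lines was 295 (95% Poisson interval 52.9 to 11630). The log2 fold change was 10.06 (SE 1.90; edgeR, adjusted p = 0.0006). Tnf was called under all 22 alternative settings, though with 1 read in the lines its direction could hardly reverse.

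The colony-stimulating factors did not move as a group. Csf1 was lower in tumors than in lines, at 99.0 CPM in B2, 160 CPM at the median and 587 CPM in B14, and 6 of the 9 tumors lay below every line. The log2 fold change was -1.91 (SE 0.43; edgeR, adjusted p = 0.0016), and it remained past the threshold under all 23 alternative settings. Csf2 (chr11:54247271-54249667, minus strand) was near the limit of detection, at 0.0421 to 1.37 CPM in 8 tumors and 3.65 CPM in B27. Its ratio of the tumor median to the pooled lines was 48.9 (95% Poisson interval 8.77 to 1930), and 4 tumors had at most 3 counts. The log2 fold change was 6.12 (SE 1.40; edgeR, adjusted p = 0.0023). Csf3 (chr11:98701263-98703629, plus strand) had 129 CPM in B27, at most 1.19 CPM in the other tumors and 0 counts in B28 and B45. It missed the threshold (edgeR, adjusted p = 0.0131) and was called by DESeq2 (adjusted p = 0.0043). Neither Csf2 nor Csf3 had enough reads to be tested without B27.

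**Figure D3:**
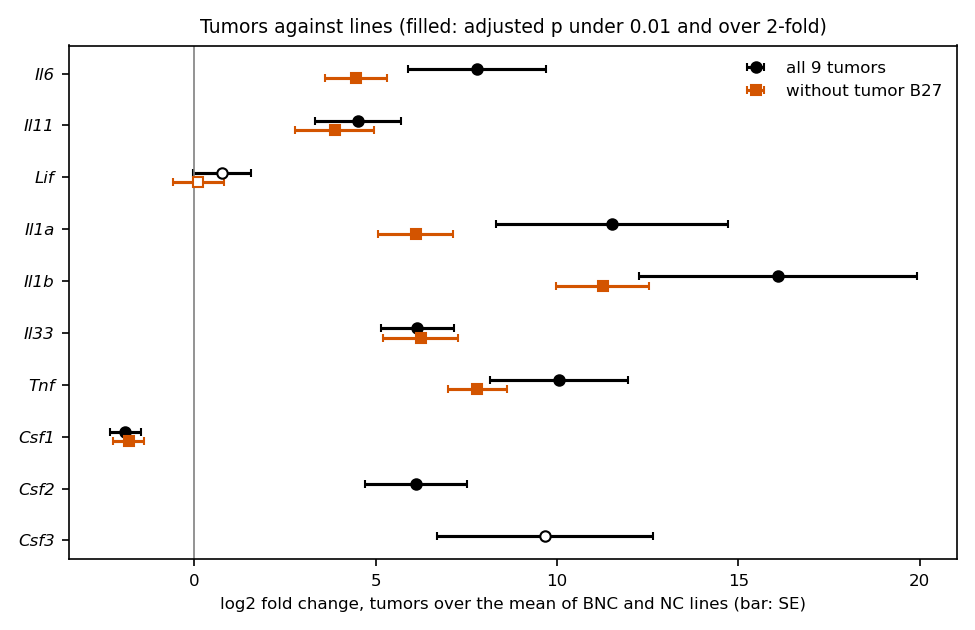
Log2 fold change of tumors over the mean of BNC and NC lines with its standard error, with all 9 tumors (circles) and without B27 (squares), filled where the gene was called. Without B27 the changes of Il6, Il1a, Il1b, Il11 and Tnf were smaller and still called, that of Lif was near 0, that of Il33 was alike, and Csf2 and Csf3 had too few reads for a test.

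To compare genes with each other, levels were divided by the exon length in kilobases. On this scale of CPM per kilobase, Csf1 led in BNC lines (median 324) and NC lines (51.2). The tumor medians were 51.9 for Il33, 30.3 for Csf1, 6.55 for Il1b and 4.60 for Lif, and between 0.268 and 1.51 for the other 6 genes. The order in B27 was another one, with Il1b at 2118, Il1a at 155, Il6 at 130 and Csf3 at 91.5 ahead of Il33 at 83.0, and Csf1 at 21.6 was eighth of 10.

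Tumor B27 was the highest for 8 of the 10 genes. The share of all genes that were highest in B27 was not computed. Its level was 357 times the median of the other tumors for Il1b, 478 times for Il1a, 389 times for Csf3, 124 times for Il6 and 45.1 times for Tnf. In the same tumor the neutrophil markers S100a8, S100a9, Ly6g, Retnlg, Cxcr2 and Csf3r summed to 4680 CPM, against 12.3 to 166 CPM in the other 8 tumors. The sum of the macrophage markers was 6126 CPM, within the range of 1944 to 8419 CPM over the tumors, but its genes did not move together. Cd14, which encodes a receptor for bacterial lipopolysaccharide, was 1877 CPM in B27 and 22.8 to 174 CPM in the others, whereas Adgre1, which encodes F4/80, was lowest in B27 at 44.0 CPM. The T and NK cell markers summed to 220 CPM in B27 and to at most 96.4 CPM in the others. Among them Cd3g was highest in B27 (111 CPM), and Cd8a was 1.504 CPM against 1.41 to 24.01 CPM in the others. The endothelial markers also had their highest sum there (664 CPM, against 79.1 to 388 CPM). The mesothelial markers had their lowest sum there (771 CPM, against 830 to 4475 CPM), but these genes did not move together either. Krt8, Krt18 and Krt19 were lowest in B27 (12.4, 23.65 and 23.2 CPM). Pdpn was 376 CPM in B27, exceeded only by B14 at 432 CPM. Msln, Upk3b, Wt1 and Lrrn4 were lower in B28 and the tumor without a number than in B27. Library depth was not unusual, with 21413339 counts. The part of these cells in the cytokine levels of B27 was not tested.

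B28 and the tumor without a number formed another pattern. They were highest for Il33 and, beside B27, for Il11, while their Il1b was 4.55 and 13.6 CPM and their Tnf 1.77 and 2.17 CPM. Their macrophage marker sums were 1944 and 3279 CPM, although the macrophage genes Mrc1 (565 and 683 CPM, against 93.5 to 368 CPM) and Cd163 (101 and 104 CPM, against 3.16 to 47.6 CPM) were highest in them. The mast cell markers had their highest sums there as well, 72.9 and 132 CPM, with B45 next at 72.2 CPM. Their Msln levels, 43.3 and 102 CPM, were the lowest of all tumors, whereas Krt18 was highest in them at 437 and 506 CPM.

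**Figure D4:**
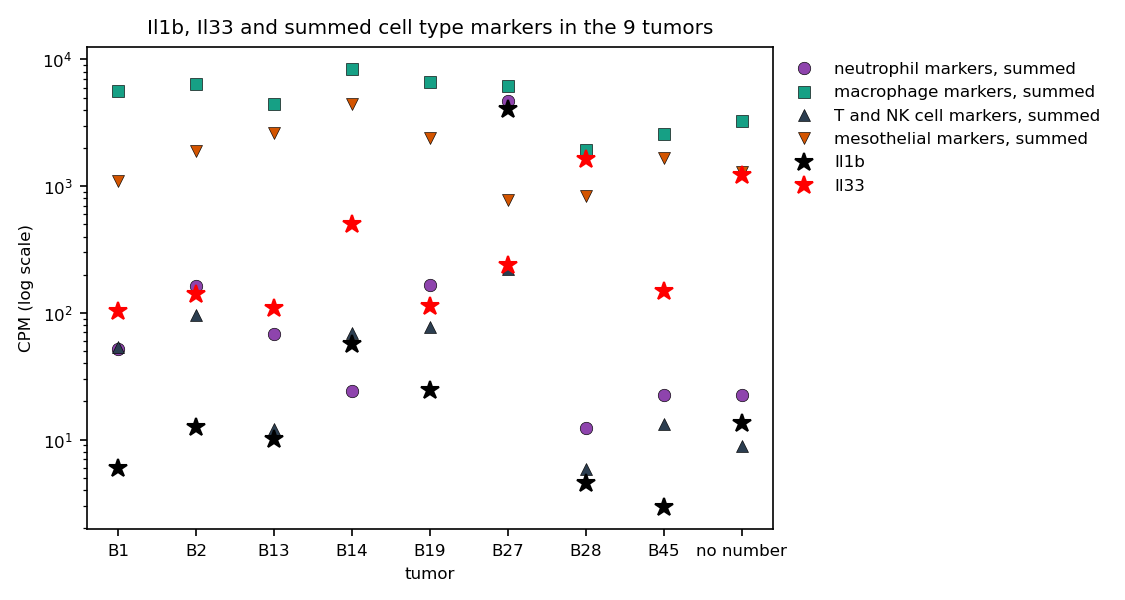
Il1b and Il33 (stars) and the summed levels of 4 marker lists in each of the 9 tumors, as CPM on a log axis. Il1b and the neutrophil markers peaked together in B27, whereas Il33 peaked in B28 and the tumor without a number.

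The genes whose levels were most like those of a member over the 9 tumors were ranked by Pearson's r of log2(CPM + 1), as a description. Il33 was closest to Mtap (r = 0.985) and Il11 to Prkar1a (0.979), with Has2, which encodes a hyaluronan synthase, at 0.971. Csf1 was closest to Ano6 (0.971) and Lif to Gpr35 (0.976). Those values were nearly the same without B27 (0.985, 0.970, 0.988, 0.974 and 0.956), also for Il11 and Lif, which peaked in B27. For the other 6 genes, all highest in B27, the value of the closest gene fell without it. Il1a with Cxcl3, a neutrophil chemokine, fell from 0.993 to 0.784, Csf3 with Cxcl2 from 0.992 to 0.704 and Tnf with Csf2rb from 0.976 to 0.775. The falls were smaller for Il6 with Garem2 (0.978 to 0.859), Il1b with Hspa1b (0.984 to 0.907) and Csf2 with Foxc2 (0.967 to 0.937). All 9 points share 1 column prefix.

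Some receptor genes were higher in lines and others in tumors, and which cells of the tumors carried them was not tested. Il6st, which encodes gp130, was abundant in lines, at 874 to 924 CPM in BNC and 409 to 645 CPM in NC lines without overlap, and the difference did not pass (log2 fold change 0.85, SE 0.22; edgeR, adjusted p = 0.053). It was lower in tumors (130 to 398 CPM; -1.40, SE 0.23; edgeR, adjusted p = 0.00017), every tumor lying below every line. Lifr was 115, 126 and 36.6 CPM in JB81, JB91 and JB97, against 12.7 to 25.1 CPM in NC lines (2.44, SE 0.55; edgeR, adjusted p = 0.040), and the change was 1.09 without JB81 and JB91. The lines JB81 and JB91 with the most Lifr were thus those with the least Lif. Il6ra was low throughout, at 4.67 to 7.65 CPM in lines and 4.08 to 33.4 CPM in tumors. Il11ra1 was 23.8 to 121 CPM in tumors and 3.68 to 10.2 CPM in lines, a log2 fold change of 3.48 (SE 0.38; edgeR, adjusted p = 4.4e-06).

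Of the IL-1 receptors, Il1r1 was higher in tumors (median 67.0 CPM, log2 fold change 2.08, SE 0.44; edgeR, adjusted p = 0.0010) and highest in B27 at 131 CPM. Its partner Il1rap overlapped between tumors and lines. The decoy receptor gene Il1r2 had 0 CPM in every line and 0.731 to 10.6 CPM in 8 tumors, but 146 CPM in B27. Il1rn, which encodes the IL-1 receptor antagonist, was 809 CPM in B27 and 3.88 to 27.8 CPM in the other tumors. In lines it was 23.5 and 24.6 CPM in JB81 and JB91, 2.60 in JB97 and 0 to 0.231 CPM in the NC lines (log2 fold change 7.08, SE 1.27; edgeR, adjusted p = 0.024), and the change was 4.35 without JB81 and JB91. Il1rl1, the receptor gene for IL-33, was 9.33 to 118 CPM in tumors, highest in B14, and 1.74 to 4.09 CPM in lines (3.59, SE 0.62; edgeR, adjusted p = 0.00024). It was lowest in B28, the tumor with the most Il33. Both TNF receptor genes were expressed in lines as well as tumors, Tnfrsf1a at 86.9 to 131 CPM and Tnfrsf1b at 15.5 to 75.4 CPM in lines, and Tnfrsf1b was higher in tumors (1.84, SE 0.52; edgeR, adjusted p = 0.0067).

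The receptors of the colony-stimulating factors were low or without reads in lines. Csf1r was at most 3.28 CPM in any line and 178 to 902 CPM in tumors, and the log2 fold change was 8.87 (SE 0.89; edgeR, adjusted p = 2.1e-06). Csf2rb had 0 counts in all lines and 47.3 to 324 CPM in tumors, and Csf3r had 0 counts in lines and 7.89 to 285 CPM in tumors, both highest in B27. All 10 genes of the list, which also holds Kit, Flt3 and other hematopoietic receptors, were called higher in tumors, beside 28.2% of all genes tested. Only 4 of them had enough reads in the lines to be tested there, and the others entered through their tumor reads. B14 had both the most Csf1 and the most Csf1r among tumors. Il34, the gene of the other CSF1R ligand, was 39.6 and 40.1 CPM in JB81 and JB91 and 5.66 CPM in JB97. NC lines had at most 0.617 CPM (log2 fold change 6.75, SE 1.18; edgeR, adjusted p = 0.023). The change was 4.34 without JB81 and JB91, which leaves JB97 as the single BNC line. The p-values of Il34, Il1rn and Lifr between lines count each close pair as independent samples.

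**Figure D5:**
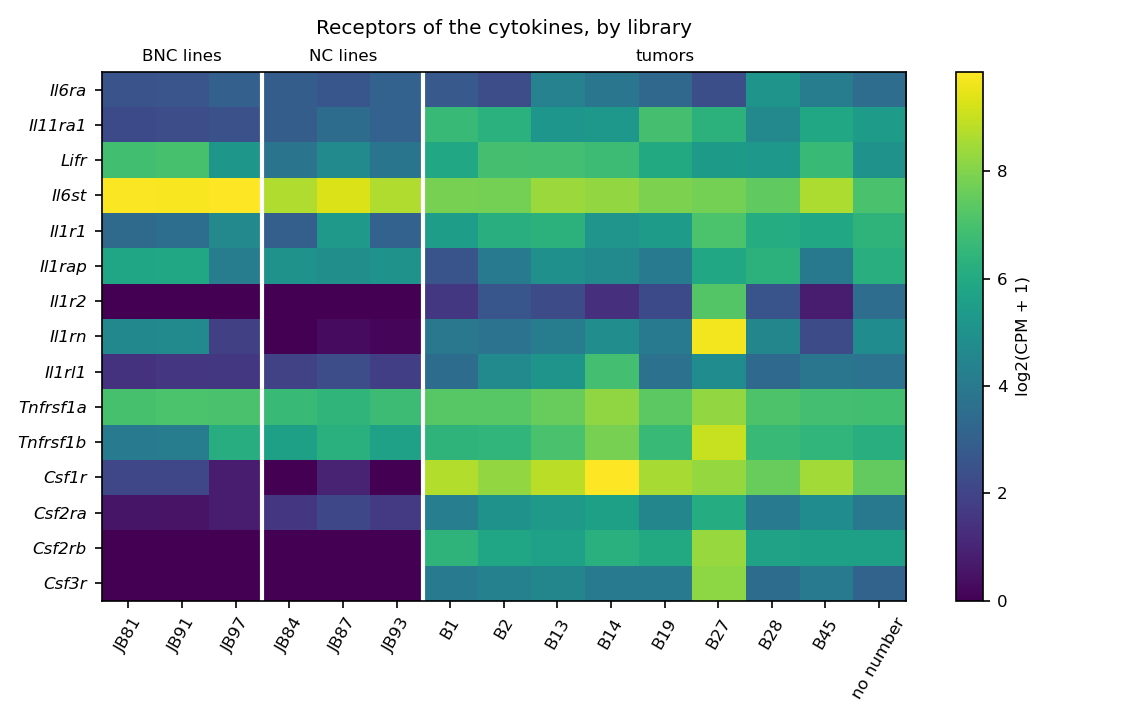
Log2(CPM + 1) of 15 receptor and antagonist genes (rows) in the 15 libraries (columns, lines left of the second white bar). Il6st was highest in the BNC lines, Csf1r, Csf2rb and Csf3r were near 0 in lines, and Il1r2 and Il1rn were highest in B27.

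The remaining pathway genes were taken from lists. Between lines, in 11 lists of ligands, receptors and signaling genes, 0 of 78 tested genes outside the 10 members were called by edgeR, beside 1.10% of all genes. Of these, 27 had an unadjusted p under 0.05 (35.6% of all genes tested) and 13 an adjusted p under 0.05 (14.2% of all), and DESeq2 called 12 of 82 (14.7% of all). The smallest edgeR p-values there belonged to Gsdmd, the pore-forming gene through which IL-1β leaves cells, at 0.579 to 2.95 CPM in BNC and 43.1 to 49.0 CPM in NC lines (-5.12, SE 0.69; edgeR, adjusted p = 0.0136), and to the STAT3 target Pim1 (-1.41, SE 0.17; edgeR, adjusted p = 0.0107) and the IL-18 receptor gene Il18rap (-3.00, SE 0.36; edgeR, adjusted p = 0.0115).

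Between tumors and lines, the counts that follow stand beside 28.2% of all genes called higher and 11.5% called lower. Il18, the IL-1 family ligand tested besides the members, was higher (5.83 to 24.4 CPM in tumors, 0.0453 to 2.90 CPM in lines). So were 10 of 12 TNF family ligands, Tnf included. Only 4 of the TNF family ligands had enough reads in the lines to be tested there, and the others entered through their tumor reads. Of the IL-1 signaling and processing genes 7 of 12 were higher, among them Casp1, whose protease cuts the IL-1β precursor (20.7 to 88.3 CPM in tumors, 0.0826 to 9.95 CPM in lines). Of the STAT3 feedback genes 6 of 10 were higher, led by Socs3 (median 104 CPM, highest in B27 at 584 CPM; log2 fold change 3.06, SE 0.55; edgeR, adjusted p = 0.0003). Of the NF-κB genes 5 of 15 were higher and 2 lower. Nfkbia, a feedback inhibitor, was 877 CPM in B27 and 47.6 to 102 CPM in the other tumors, whereas Rel was lower in every tumor than in any line. Of the factors that destabilise cytokine messages 4 of 10 were higher and 1 lower. Adam17, whose protease releases TNF from the cell surface, did not pass (log2 fold change 0.11, SE 0.22; edgeR, adjusted p = 0.68).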

How the data were processed

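RNA of 6 mesothelioma cell lines and 9 mouse tumors was analysed. For each Ensembl gene the authors deposited raw read counts. Per the methods of the study, they aligned the single-end reads of poly-A RNA libraries to mm10 using TopHat 2.0.12, left out secondary alignments and those of poor mapping quality, and ran HTSeq-count on the others. The annotation release and the strand setting were not given in the sources used here. The genotype of a line was taken from its name in the study's table of line values. The 14 columns of DNA copy number were not used here, and the chromatin profiles were not analysed here.

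The quasi-likelihood test of edgeR 4.0.16 (R 4.3.3) was run after filterByExpr with a minimum count of 10 and TMM scaling. It used the 6 lines for BNC against NC, and all 15 libraries for tumors against the mean of both line groups. Genes with more than 2-fold change and a p-value under 0.01 after Benjamini-Hochberg adjustment were called. Standard errors of log2 fold changes were derived from the F statistic. DESeq2 1.42.0, other scalings, filters and thresholds, a replicate block, the numeric prefix of the column as covariate, summing of close pairs of lines, and leaving out each library were alternatives. The lines are separate samples by their names, but whether each came from its own animal was not stated, so that p-values measure the spread between these samples. Limits of 3 counts (0.124 to 0.856 CPM per library) and Poisson intervals cover counting error only.

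The named genes are the 10 members, their receptors and processing genes, the 2 genes with the smallest p-value of a list in each comparison, the targeted genes, and the 3 genes most like each member over tumors. Genes named beside these were chosen after their values were seen. The members and lists were chosen with earlier results of these data known. Gene positions and exon lengths come from GENCODE M21 (GRCm38), and promoters from RefSeq. For figures, matplotlib 3.10.9 was used (Python 3.11.15). A result between lines for a list of receptor genes is not reported here.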

Additional observations from a re-analysis of the deposited data

Results flagged for a closer look

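In tumor B27, 7 of the 10 genes lay farther from the other 8 tumors than the 95% limit of Dixon's test allows. These were Il6 at 314.7 CPM, Il1a at 304.9 CPM, Il1b at 4039 CPM, Tnf at 104.7 CPM, Lif at 105.1 CPM, Csf2 at 3.65 CPM and Csf3 at 129.2 CPM. By chance about 1 in 20 groups of normally distributed values is marked by this test, and skewed values such as unlogged CPM are marked more often. The share of all genes marked in B27 was not computed, and the 7 genes share 1 library. Il11, also highest in B27, was not marked, because B28 and the tumor without a number were close to it. The values of the neutrophil, T cell and mesothelial markers in B27 are given above, and their part in these levels was not tested.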

How the results depend on the processing

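Between BNC and NC lines, 0 of the 3 tested members and 136 of all genes were called. DESeq2 called 1 member and 1996 genes, and 585 genes with close pairs of lines summed (chosen after the data were seen). The other edgeR settings gave 83 genes with at least 10 counts in every line, 1436 at an adjusted p under 0.05, 416 with all 15 libraries in 1 fit, 1 with the column prefix as covariate, 0 with close pairs summed (1508 at an unadjusted p under 0.05) and 0 without JB81 and JB91. Leaving out each line gave 0 to 1 members and 0 to 2574 genes. A member was called only without JB87 or without JB97, each of which left a close pair as the whole of its group. Without JB81 and JB91 (chosen after the data were seen, 1 BNC line left) Il33 turned to -0.32 and Lif to 0.016. A replicate block called 0 genes with the study's numbers and 0 with JB97 as number 3. By the study's numbers same-numbered lines had correlated deviations of 0.128 (JB81 and JB84), -0.0861 (JB91 and JB87) and 0.1003 (JB97 and JB87), and JB97 with JB93 had -0.0937. Because each group holds a close pair, these values depend on each other and cannot tell whether the numbers pair the lines.

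Between tumors and lines, 8 members and 6220 genes were called. Requiring at least 10 counts in every library left 2 of 3 tested members and 2796 genes, close pairs summed gave 3 members, and leaving out each library gave 4 to 8. The counts of 4 and 5 came without 1 of the lines, when Il1a, Il1b, Il11 and, in 4 of 6 cases, Il6 missed the threshold. The 10 genes kept their direction in each setting that tested them. All but Csf1, Il33 and Lif had hardly any reads in the lines, so that their direction could hardly reverse. The prefix could not be a covariate for tumors, since all of them shared it. The cause of these changes was not tested. The members with at most 3 counts per line cannot be compared between BNC and NC at this depth.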

Other observations

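B27 was also the tumor with Il17a, the T helper cytokine that drives neutrophil responses. Its level was 294.5 CPM in B27 and 0 in each of the other 14 libraries, and Il17f was 57.6 CPM in B27 and at most 0.137 CPM in the others. Il23a, a subunit of the cytokine that sustains cells making IL-17, was 10.0 CPM in B27 and at most 0.253 CPM elsewhere. These genes were chosen after their values were seen.

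Il10, an anti-inflammatory cytokine gene, was 99.2 CPM in B28 and 46.5 CPM in the tumor without a number, at most 2.60 CPM in the other 7 tumors and 0 in every line. These were the tumors with the most Il33.

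Of 8 interferon response genes tested between the lines, 6 were lower in BNC lines at an adjusted p under 0.05 (edgeR), a threshold that 14.2% of all genes tested passed. Isg15 was 139 CPM in JB84 and 152 CPM in JB93, but 2.24 CPM in JB87 and at most 0.249 CPM in the BNC lines (log2 fold change -8.98, SE 1.75; edgeR, adjusted p = 0.028). JB84 and JB93 are a close pair, and the third NC line lay nearer to the BNC lines. The gene was chosen after its values were seen.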
